A study of Mus musculus with 9 samples.

Results

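The 4 h response to dexamethasone (Dex) was examined in mouse red cell progenitors that were also treated with dimethyloxalylglycine (DMOG). The comparison set the library of cells given 100 nM Dex and 333 µM DMOG against the library of cells given 333 µM DMOG alone. These are 2 of the 9 libraries of the series, 1 library each, so differences between them have no replicate check and carry no p-value. A gene entered when its normalised RPKM reached 1 in either library, which held for 9724 of 19840 named genes or records. RPKM is reads per kilobase of transcript per M (mega) reads.

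The cells were BFU-E (burst-forming unit-erythroid), sorted from C57BL/6 fetal livers between embryonic days 13.5 and 14.5. Per the labels' protocols they were the 10% with the lowest CD71 and CD24a among Kit-positive cells lacking Ter119, CD41, CD34 and markers of B, T and myeloid cells. They spent 4 h in a serum-free expansion medium supplied with erythropoietin (2 U/mL), IGF-1 (40 ng/mL) and SCF, the Kit ligand (100 ng/mL), and were then divided into 4 arms of 25% each. The arms received water, Dex, DMOG or both for another 4 h. The water and Dex arms of this sort (the CD71/CD24a pair), and a separate water and Dex pair from BFU-E sorted by CD71 alone (the CD71 pair), served for comparison. The 3 Dex pairs shared no library, but the 4 arms of the CD71/CD24a sort shared their starting cells. The labels do not say how many embryos were pooled.

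Dex is a synthetic glucocorticoid. It binds the glucocorticoid receptor, which is held by Hsp90 and its co-chaperones until hormone arrives and then acts in the nucleus as a transcription factor. In fetal liver, glucocorticoids are known to prolong the renewal of early erythroid progenitors. DMOG blocks the oxygen-dependent enzymes (prolyl hydroxylases) through which the von Hippel-Lindau protein recognises and removes HIF alpha chains. HIF then accumulates and activates genes of glucose uptake, glycolysis, angiogenesis and iron handling.

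The DMOG libraries were the deepest of the set, with a recovered depth of 40.1 M reads for DMOG and 52.8 M for Dex with DMOG, against 11.9 to 23.7 M for the others. As a check of the DMOG label, 2 known HIF targets stood higher with DMOG than with water. Ankrd37 was 1.19 normalised RPKM in water and 22.5 in DMOG, and the glucose transporter gene Slc2a1 was 26.3 and 62.3. Kit, which marks these progenitors, was 55.0 in the DMOG library and 87.7 with Dex added. Tfrc and Cd24a, which encode the 2 proteins gated low at the sort, were 258 and 134 in the DMOG library against 20.3 and 25.2 in fresh BFU-E. Of 13 macrophage markers matched, 0 reached 1 RPKM in either DMOG library, and their summed level was 0.954 and 1.05. Neutrophil and mast cell markers summed to 6.53 and 6.38 and endothelial markers to 12.6 and 12.01. Lymphoid markers summed to 3.50 and 2.37 and hepatocyte markers to 15.7 and 17.6.

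In the presence of DMOG, 54 of 9724 genes (0.555%) were at least 2-fold higher with Dex and 36 (0.37%) at least 2-fold lower. Here 2-fold means a difference of 1 or more in log2(normalised RPKM + 1), a scale on which low genes appear to differ less than they do. The median difference over all 9724 genes was -0.01, and the middle 90% of genes lay between -0.38 and 0.33. Exact (Clopper-Pearson) 95% intervals of the ratio of recovered reads excluded 1 for 51 of the 54 higher genes and 29 of the 36 lower genes. The remaining 3 and 7 had no transcript length, so no interval was made. The intervals cover counting error only. With a pseudocount of 0.1 in place of 1 the counts were 90 higher and 62 lower.

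Levels are given in normalised RPKM, with the library without Dex first in each pair. The 5 genes with the largest positive differences were Arhgef3, Mmp2, Enah, Zfp1 and Hopx, all higher with Dex in all 3 pairs. Arhgef3, which encodes a guanine nucleotide exchange factor, was 2.31 in the DMOG library and 20.1 with Dex, a ratio of 8.72 (7.82 to 9.74). Its other pairs were almost superimposable, with 2.37 in water and 20.7 in Dex in the CD71/CD24a pair and 2.46 and 17.6 in the CD71 pair. The 3 control libraries lay below 3 RPKM and the 3 Dex libraries at 17.6 or more. Arhgef3, like the other largest rises and falls, was picked by the DMOG pair, so only the other pairs are separate from that choice.

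Mmp2, a secreted gelatinase, was 0.0996 with DMOG and 4.19 with Dex, a ratio of 42.1 (24.7 to 80.1), and its 3 controls were all below 0.2 RPKM. Enah, an actin regulator of the Ena/VASP family, was 1.41 and 9.64, and the integrin beta 3 gene Itgb3 was 2.96 and 14.4. Hopx, which encodes a small homeodomain protein that does not bind DNA, was 3.27 and 16.1. All 4 genes were at least 2-fold higher with Dex in each of the 3 pairs.

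Zinc finger gene Zfp1 was 0.846 and 7.04, the FERM domain gene Frmd4a was 7.08 and 24.1, and the protease inhibitor gene Serpina3g was 12.6 and 37.8. Nt5e, the cell surface enzyme that makes adenosine, was 0.728 and 5.08. Tph1, which makes the serotonin precursor, was 0.686 and 4.76. Nt5e was less different in the CD71 pair (0.397 in water and 1.34 in Dex), whereas Zfp1, Frmd4a, Serpina3g and Tph1 were past 2-fold in all 3 pairs.

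Maff, a small Maf transcription factor, was the member of the immediate early list that stood apart. It was 3.01 with DMOG and 13.5 with Dex (difference 1.85), 2.75 and 4.52 in the CD71/CD24a pair (0.56), and 1.15 and 6.65 in the CD71 pair (1.83). The Dex libraries thus differed among themselves, while the controls stayed at 3.01 or below. The other 11 expressed immediate early genes lay between -0.58 (Jun) and 0.47 (Ier3). Pnmt, which makes adrenaline and was singled out after its values were seen, was listed at 0 in all 3 control libraries. It was 1.32 with Dex and DMOG, 1.57 with Dex in the CD71/CD24a pair and 4.34 with Dex in the CD71 pair.

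Gsta4, Ank, Lpl and Ppp1r3b were also past 2-fold higher. The glutathione transferase gene Gsta4 was 3.79 with DMOG and 12.1 with Dex, and the pyrophosphate exporter gene Ank was 11.9 and 32.5. Lpl, which encodes lipoprotein lipase, was 1.33 and 5.27, against 0.619 and 1.94 in the CD71/CD24a pair and 0.905 and 1.55 in the CD71 pair. Ppp1r3b, which targets a phosphatase to glycogen, was 0.949 and 3.61. Gsta4 and Ank rose in a limma test of the 4 libraries without DMOG, and Lpl and Ppp1r3b did not pass it (adjusted p = 0.324 and 0.221 in limma).

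Further genes past 2-fold higher were Sla, Tns1, Clstn1, Rec8 and Calcrl. The Src-like adaptor gene Sla was 2.08 and 6.91, the focal adhesion gene Tns1 3.41 and 9.25, and the calsyntenin gene Clstn1 20.6 and 52.0. Rec8, a cohesin subunit of meiosis, was 0.694 and 3.28. All 4 were past 2-fold in each of the 3 pairs and rose in the limma test. Calcrl, a receptor for adrenomedullin and CGRP, was 1.64 and 4.68 with DMOG but 2.35 and 3.26 in the CD71/CD24a pair, short of 2-fold there.

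**Figure D1:**
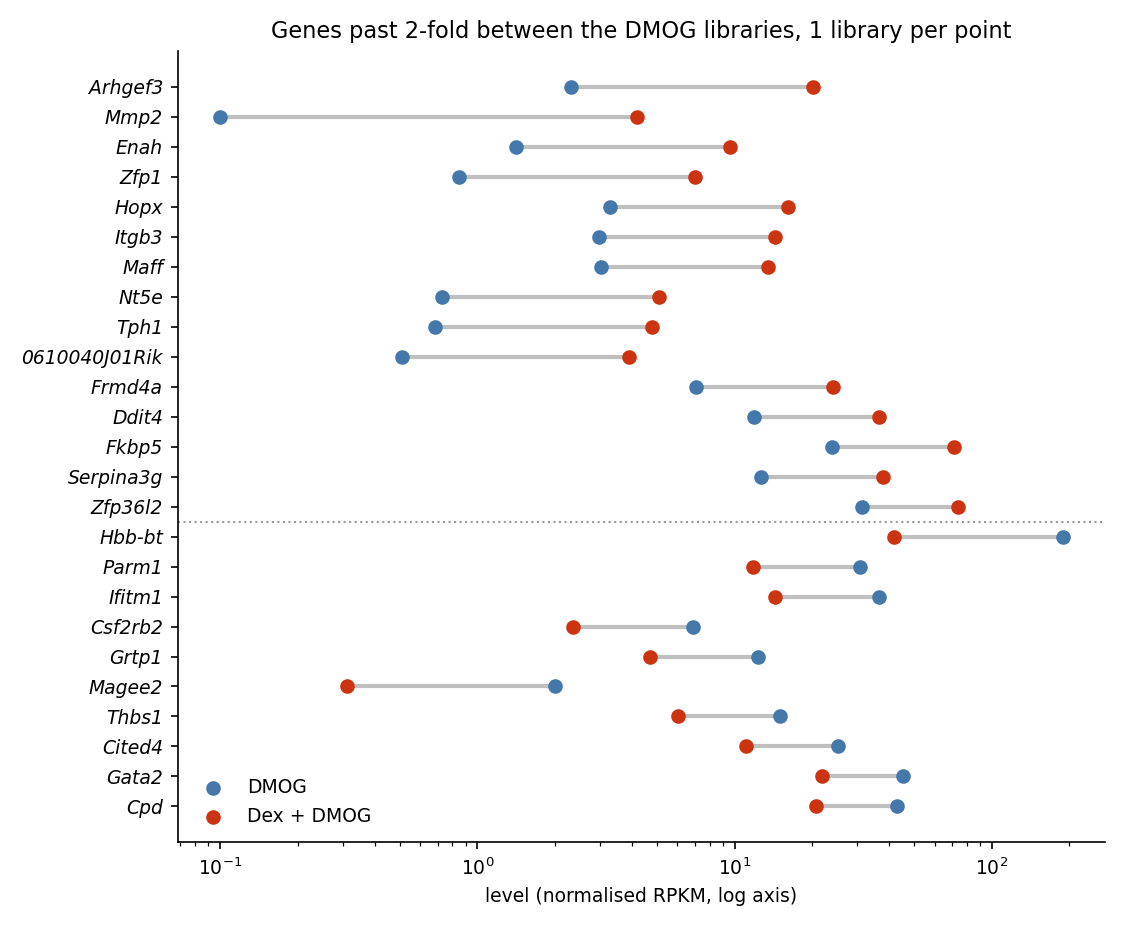
Levels in the DMOG library (blue) and the Dex with DMOG library (red) on a log axis, 1 library per point, for 15 genes at least 2-fold higher (above the dotted line) and 10 at least 2-fold lower with Dex. The gap is widest for Mmp2 (0.0996 and 4.19), and Arhgef3 goes from 2.31 to 20.1, while Hbb-bt goes from 189 to 41.6.

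To ask whether the genes that respond to Dex on its own also differed under DMOG, Dex was tested in the 4 libraries without DMOG with limma, with the pair as a block and 1 residual degree of freedom. Of 9637 genes tested, 49 (0.508%) rose and 12 (0.125%) fell at a Benjamini-Hochberg adjusted p under 0.05, 61 in all (0.633%). Without adjustment 1033 (10.7%) had a p under 0.05. With no filter on low values, or with no pair term, limma called 0 genes in these 4 libraries, and with no scaling factors it called 143 rises and 82 falls, so the membership of this set rests on those choices. All 49 that rose were above 0 in the DMOG pair, and 31 of them were past 2-fold. The DMOG libraries entered the level filter, the scaling and the choice of record, but not the fit. Their differences ran from 0.16 (Tent5c) to 2.67 (Arhgef3) with a median of 1.16, against -0.01 for all genes. All 12 that fell were below 0, with a median of -1.19, and 10 were past 2-fold lower. The weakest of them was the small nucleolar RNA Snord73a at -0.10.

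Read from the other side, 40 of the 54 genes past 2-fold higher with DMOG were also past 2-fold among the 56 (0.575%) in the CD71/CD24a pair. In the CD71 pair, where 80 genes (0.82%) were past 2-fold higher, 37 of the 54 were among them. Above 0 were 53 of 54 in the CD71/CD24a pair and 52 of 54 in the CD71 pair, against 4634 and 4834 of all 9724 genes. Of the 36 lower genes, 10 were among the 19 (0.195%) past 2-fold lower in the CD71/CD24a pair and 10 among the 144 (1.48%) in the CD71 pair. Below 0 were 36 of 36 and 26 of 36, against 5090 and 4889 of all 9724 genes. The 10 lower genes that were above 0 in the CD71 pair differed in sign between the sorts.

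**Figure D2:**
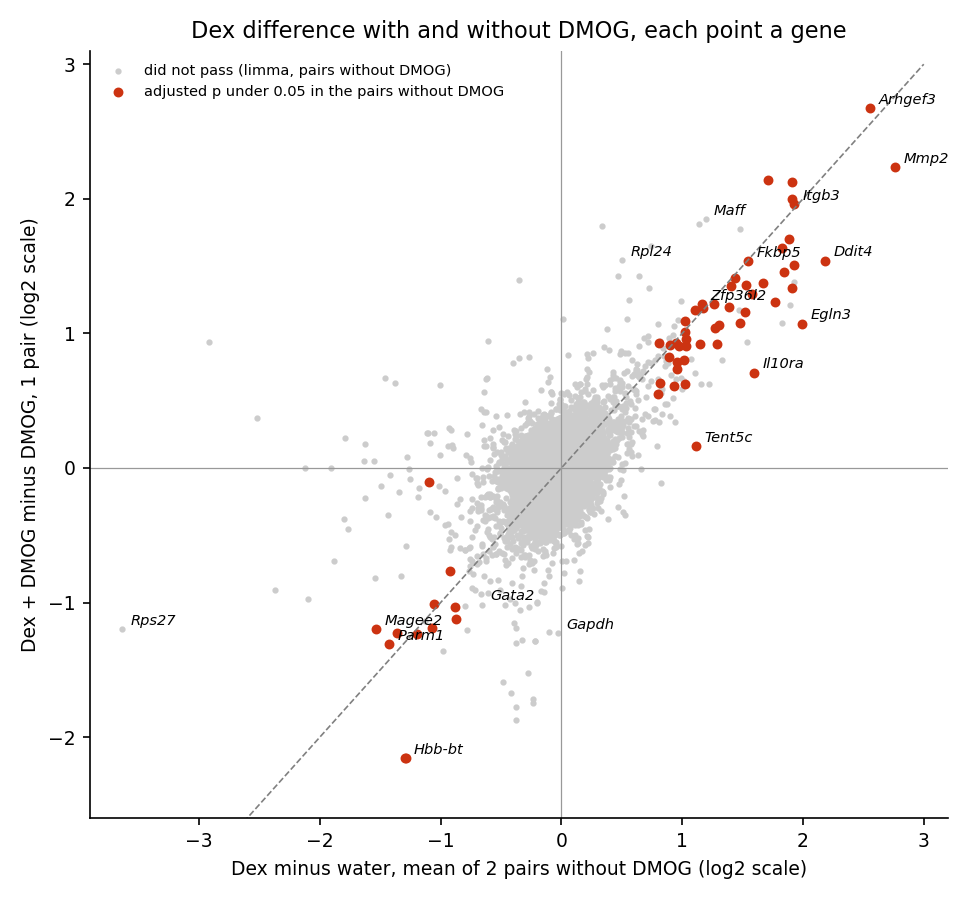
Each point is 1 of 9637 genes, with the limma estimate of Dex minus water over the 2 pairs without DMOG on the x axis and the difference of the 1 DMOG pair on the y axis, both on the log2(normalised RPKM + 1) scale. Points beyond the range of the x axis are not shown, among them a record without a symbol at -4.87. The dashed line marks equal differences. Red points are the 49 genes that rose and 12 that fell without DMOG, and all 61 lie on the same side of 0 on both axes.

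Whether DMOG altered the Dex response was tested as an interaction in limma over the 6 cultured libraries, with the pair as a block. No gene passed: 0 of 9637 had an adjusted p under 0.05, the smallest adjusted p was 0.997, and 166 (1.72%) had an unadjusted p under 0.05. The 1 residual degree of freedom comes from the difference between the 2 pairs without DMOG, so the spread of the DMOG pair itself is not measured. The count does not show that responses were equal. For Fkbp5 the Dex difference with DMOG minus that without was -0.01 (95% interval -0.44 to 0.42), for Hif3a -0.02 (-0.48 to 0.44) and for Zfp36l2 0.05 (-0.41 to 0.51). The estimate was -0.64 (-1.58 to 0.29) for Ddit4 and -0.92 (-1.97 to 0.13) for Egln3. These intervals assume that the DMOG pair varies as the other pairs do. The DMOG pair is of the CD71/CD24a sort, while 1 of the 2 pairs without DMOG is of the CD71 sort. All interaction estimates given here therefore mix DMOG with the sort. Ddit4 differed by 1.54 in the DMOG pair, 1.72 in the CD71/CD24a pair and 2.65 in the CD71 pair. For Egln3 these differences were 1.07, 1.47 and 2.52.

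Within the CD71/CD24a sort alone, a value with no test, the Dex difference with DMOG exceeded that without by more than 1 for 10 genes and fell short of it by more than 1 for 7 of the 9637. The middle 90% of genes lay between -0.31 and 0.31.

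Known glucocorticoid-induced genes were mostly higher. Of 30 listed, 19 were expressed, 7 of the 19 were past 2-fold higher and 0 lower, with a median of 0.78. The 7 were Ddit4, Fkbp5, Per1, Zfp36l2, Tsc22d3, Mt2 and Tgm2. Fkbp5, a co-chaperone that lowers the receptor's affinity for hormone, was 24.0 with DMOG and 71.4 with Dex. Its controls were 25.4 and 25.6 in the other pairs and its Dex libraries 71.8 and 81.3, so DMOG and water libraries gave near-equal values on both sides of the comparison.

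Zfp36l2 encodes an RNA-binding protein that destabilises transcripts and is known to be needed for BFU-E renewal. It was 31.4 and 74.2 in the DMOG pair, 35.7 and 74.0 in the CD71/CD24a pair and 71.9 and 178 in the CD71 pair. The CD71 pair stood higher in both arms, and the 4 libraries of the CD71/CD24a sort lay at 2 levels, one for each Dex state. Tsc22d3, which encodes the anti-inflammatory protein GILZ, was 6.84 and 16.9. The clock gene Per1 was 4.70 and 12.4, and 12 other expressed clock genes lay between -0.51 (Nfil3) and 0.47 (Dbp).

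The 4 next members were the glutamine synthetase gene Glul (79.1 and 151), the transcription factor genes Zbtb16 (4.09 and 8.51) and Klf9 (2.46 and 4.95), and Txnip, a brake on glucose uptake (11.9 and 20.4). Together with the 7 above they were the 11 members that rose in the limma test without DMOG, of 18 tested. The phosphatase gene Dusp1 (1.92 and 1.19) and the insulin signalling adaptor gene Irs2 (12.6 and 8.07), also listed as induced, were lower with Dex. Sgk1, Cebpd, Tat and Pck1 were among the 11 that did not reach 1 RPKM.

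The receptor and its partners differed little. Of 14 expressed members of the receptor machinery, 0 were past 2-fold, and the median was 0.04. Nr3c1, which encodes the receptor, was 16.0 with DMOG and 20.3 with Dex, against 12.9 and 14.6 in the CD71/CD24a pair and 12.4 and 13.4 in the CD71 pair. The chaperone gene Hsp90ab1 was 2178 and 2481 and its partner Fkbp4 was 345 and 369. The lowest member was the chaperone gene Hspa8, at 419 and 308.

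Among genes of the oxygen-sensing pathway itself, 2 of 8 were past 2-fold higher and 0 lower. Egln3 encodes a prolyl hydroxylase that is itself induced by HIF. It was 1.64 in water, 6.30 in Dex, 18.2 in DMOG and 39.5 with both, so each agent's library stood above water and the library with both stood highest. Its ratio between the DMOG libraries was 2.16 (2.06 to 2.28). Hif3a, whose product can restrain the other HIF alpha subunits, was 20.1 in water, 60.9 in Dex, 23.8 in DMOG and 65.1 with both. It split by Dex alone, with near-equal levels with and without DMOG. Hif1a was 20.2 and 20.8 in the DMOG pair, Arnt 13.0 and 13.9, Egln1 12.7 and 15.7, Egln2 32.4 and 28.2, and Vhl 8.26 and 7.86. Epas1 did not reach 1 RPKM.

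Of 27 expressed HIF targets outside glycolysis, 2 were past 2-fold higher, 0 lower and 17 below 0. Their median was -0.13, against -0.01 for all expressed genes. One of the higher genes was Ndrg1, a stress-responsive gene. It was 0.990 in water, 2.33 in Dex, 1.87 in DMOG and 5.01 with both. The level was highest where both agents were present. By contrast Ankrd37 was 22.5 with DMOG and 17.5 with Dex added, and the angiogenic factor gene Vegfa was 16.1 and 12.1. Pdk1, which encodes a pyruvate dehydrogenase kinase, was 35.9 and 35.8, and the mitophagy gene Bnip3 was 11.1 in both.

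Ddit4 is induced by glucocorticoids and by HIF and encodes an inhibitor of mTORC1. It was 3.43 in water, 13.6 in Dex, 11.9 in DMOG and 36.4 with both, a difference of 1.54 in the DMOG pair and 1.72 in the CD71/CD24a pair. The other 15 expressed members of the mTORC1 and stress list lay between -0.48 (Slc7a11) and 0.21 (Ppp1r15a).

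A second kind of pattern was seen for Tent5c, a poly(A) polymerase gene, and Il10ra, a receptor for interleukin-10, both singled out after their values were seen. Tent5c was 2.62 in water, 6.14 in Dex, 12.2 in DMOG and 13.8 with both. Il10ra was 0.556, 3.85, 4.71 and 8.33. Both rose with Dex in the limma test without DMOG, and both differed less in the DMOG pair, whose control already stood high. The interaction was -0.96 (-1.49 to -0.42) for Tent5c and -0.89 (-1.46 to -0.31) for Il10ra, and neither passed in limma (adjusted p = 0.997 for both).

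**Figure D3:**
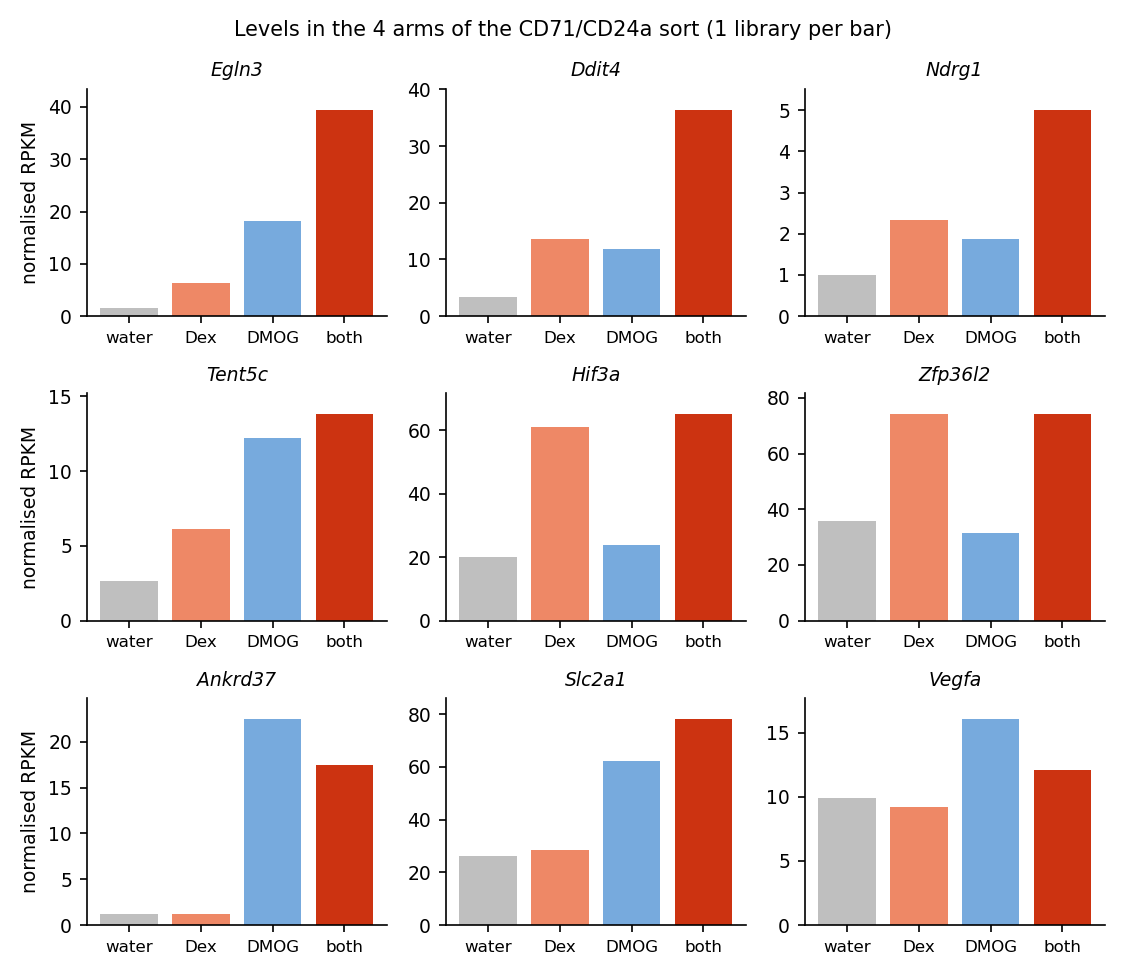
Levels of 9 genes in the 4 arms of the CD71/CD24a sort, 1 library per bar, each panel on its own axis from 0. Egln3, Ddit4, Ndrg1 and Tent5c are highest with both agents, Hif3a and Zfp36l2 split by Dex, and Ankrd37 and Vegfa are highest in the DMOG arm.

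Promoter windows of genes that differed together were read from a RefSeq table (GRCm38.p6), from 250 bases before to 50 bases after each start. The table held windows for 36 of the 54 higher genes and 23 of the 36 lower genes. A nearly full form of the glucocorticoid response element (AGAACA, any 3 bases, then TGTTC, on either strand) was in 0 of 57 windows of the higher genes and 0 of 25 of the lower genes, against 0.0487% of all 32851 windows. A looser form (GNACA, any 3 bases, then TGTNC), which also matches the nearly full one, was also in 0 of both, against 0.475% of all. These absences say only that the letters are not in these windows.

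ACGTG, a form of the core of the hypoxia response element, was searched on either strand. The form GCGTG was not searched. ACGTG was in 13 of 57 windows of the higher genes (22.8%) and 5 of 25 of the lower genes (20%). It was in 19.6% of all windows and in 27.2% of windows of expressed genes, so the share in the higher genes lay between these. The windows of Ddit4 and Egln3 are shown as examples of genes that stood above water with each agent and highest with both. Ndrg1, Tent5c and Il10ra also did so and are not shown. The windows read for Arhgef3 and Hif3a, also not shown, held no ACGTG on either strand, though that of Hif3a holds GCGTG. The window of Fkbp5 is shown beside those of Ddit4 and Egln3 because Fkbp5 levels in water and DMOG were near equal (25.4 and 24.0). Capitals mark ACGTG on either strand. In Fkbp5 it lies in CACGTG, the E-box, which reads the same on both strands and so holds 2 overlapping matches. The windows are on the minus strand at chr10:59951721-59952020 (Ddit4), chr12:54203825-54204124 (Egln3) and chr17:28486100-28486399 (Fkbp5).
Ddit4: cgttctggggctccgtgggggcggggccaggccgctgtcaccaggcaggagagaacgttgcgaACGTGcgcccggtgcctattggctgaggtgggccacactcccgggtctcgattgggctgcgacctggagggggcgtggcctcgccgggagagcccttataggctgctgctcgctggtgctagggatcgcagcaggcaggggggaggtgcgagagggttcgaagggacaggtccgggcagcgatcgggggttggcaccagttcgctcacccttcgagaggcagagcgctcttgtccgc
Egln3: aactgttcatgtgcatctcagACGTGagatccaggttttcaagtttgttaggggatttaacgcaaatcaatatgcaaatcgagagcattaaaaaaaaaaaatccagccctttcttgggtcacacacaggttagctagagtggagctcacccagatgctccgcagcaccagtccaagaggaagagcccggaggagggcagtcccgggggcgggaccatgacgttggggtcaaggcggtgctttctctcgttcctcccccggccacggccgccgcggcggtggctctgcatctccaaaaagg
Fkbp5: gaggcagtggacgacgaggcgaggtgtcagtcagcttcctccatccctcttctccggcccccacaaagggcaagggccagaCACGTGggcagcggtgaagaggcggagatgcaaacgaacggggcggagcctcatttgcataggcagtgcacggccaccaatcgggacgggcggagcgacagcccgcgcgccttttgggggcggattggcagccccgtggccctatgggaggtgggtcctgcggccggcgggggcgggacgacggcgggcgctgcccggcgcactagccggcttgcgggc
All 3 windows shown hold ACGTG upstream of the start, that of Fkbp5 included.

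Most glycolysis genes lay close to their DMOG level when Dex was added. Of 20 expressed, 0 were past 2-fold higher and 1 lower, with a median of 0.03. Slc2a1 was 62.3 and 78.3, and the abundant enzymes Ldha and Aldoa were 1281 and 1304 and 728 and 727. The hexokinase gene Hk1 was 195 and 304, and Pfkfb4, which makes the activator of phosphofructokinase, was 3.62 and 7.82. The 1 lower gene was Gapdh, at 12.4 and 4.74, with 27.1% of its sequence shared with other genes.

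Beta-globin transcripts stood lower with Dex. Hbb-bt was 189 with DMOG and 41.6 with Dex, a ratio of 0.220 (0.208 to 0.233). It was 132 and 48.7 in the CD71/CD24a pair and 940 and 421 in the CD71 pair, so the Dex library was lower in each pair. Hbb-b2 gave nearly the same values (194 and 42.6), and 63.4% of the Hbb-bt sequence is shared, so these are not independent measurements and the level of each copy is uncertain. The interaction for Hbb-bt was -0.87 (-1.32 to -0.41), which did not pass in limma (adjusted p = 0.997). In bulk samples, fewer cells with a transcript and less of it per cell cannot be told apart.

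All 6 expressed globin records were below 0, with a median of -0.62. Alpha-globin Hba-a1 was 3.37 and 1.87, embryonic Hbb-y 2.18 and 1.05, and Hbb-bh1 2.67 and 1.59. These 3 records were under 4 RPKM in both libraries. How reads that match several genes were treated is not given, so levels are not compared between globin genes.

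Of 23 genes of heme synthesis and iron, 16 were below 0 and 0 past 2-fold, with a median of -0.16. Over all expressed genes the median was -0.01 and the middle 90% lay between -0.38 and 0.33. The median of the heme and iron genes was -0.12 in the CD71/CD24a pair and 0.07 in the CD71 pair. Tfrc, the transferrin receptor, was 258 and 196, and was also lower with Dex in the CD71/CD24a pair (253 and 186) and the CD71 pair (230 and 129). Coproporphyrinogen oxidase gene Cpox was 435 and 328. The 2 ferritin subunits went apart, as the heavy chain gene Fth1 was 2022 and 3872 and the light chain gene Ftl1 was 319 and 237. Fth1 was the highest member in the list in both libraries.

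Red cell membrane genes had a median of -0.02, with 2 of 21 past 2-fold higher and 0 lower. Rhag, the Rh-associated ammonium channel gene, was 58.1 and 122 in the DMOG pair, 58.9 and 134 in the CD71/CD24a pair and 75.7 and 122 in the CD71 pair. Cd24a was 134 and 287, 114 and 298, and 189 and 277. Both were higher in every Dex library than in any control of the same sort, and neither passed in the limma test without DMOG (adjusted p = 0.0703 for Rhag and 0.166 for Cd24a). Cd24a encodes one of the proteins of the sort gate.

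Of 20 erythroid regulators 16 were below 0 in the DMOG pair, with 0 past 2-fold. Their median was -0.20, against -0.01 for all expressed genes. It was -0.15 in the CD71/CD24a pair and 0.01 in the CD71 pair. Zfpm1, which encodes the GATA1 partner FOG1, was 79.0 and 41.0, and Lmo2, a bridge in the same DNA-binding complex, was 188 and 108. Gata1 was 135 and 123, Klf1 85.5 and 69.2, and Epor, the erythropoietin receptor gene, 47.5 and 41.7. The difference was thus larger for Zfpm1, the lowest of the 20 at -0.93, and for Lmo2 than for Gata1. Other partners of GATA1 were not compared.

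Gata2, known for its role in the upkeep of blood stem cells, was 45.3 with DMOG and 21.9 with Dex. It was 46.1 and 22.6 in the CD71/CD24a pair and 28.2 and 22.3 in the CD71 pair, so the 3 Dex libraries lay within 21.9 to 22.6 and the controls were spread from 28.2 to 46.1. It did not pass in the limma test without DMOG (adjusted p = 0.281). Of 22 expressed stem and progenitor genes, Gata2 was the 1 past 2-fold lower and 0 were higher. Of these 14 were below 0, and the median was -0.09, against -0.01 for all expressed genes. The median of these genes was -0.0017 in the CD71/CD24a pair and -0.02 in the CD71 pair. Kit was the highest of them in difference, at 55.0 and 87.7 (0.66), and Myc was 196 and 154.

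Beta chains of the interleukin-3 receptor family stood lower with Dex. Of 18 expressed growth factor and cytokine receptor genes, 2 were past 2-fold lower and 0 higher. Csf2rb2, the interleukin-3-specific beta chain, was 6.88 and 2.36, and Csf2rb, the common beta chain, was 18.8 and 8.71. The 2 genes share sequence (30.3% of Csf2rb2), so reads of one may count for the other. Csf2rb2 fell in the limma test without DMOG (adjusted p = 0.0236), and Csf2rb did not pass it (adjusted p = 0.0802). The interleukin-4 receptor gene Il4ra was 31.9 and 16.6, while Csf2ra, the alpha chain for GM-CSF, was 5.01 and 4.69.

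Feedback targets of JAK-STAT signalling went both ways, with 7 of 10 below 0 and 1 past 2-fold higher. Their median was -0.31, against -0.01 for all expressed genes. Socs1, an inhibitor of JAK kinases, was 1.91 and 6.60 in the DMOG pair, 1.68 and 5.82 in the CD71/CD24a pair and 5.70 and 37.0 in the CD71 pair. Cish, another inhibitor of the same family, was 14.7 and 8.57. Oncostatin M gene Osm was 1.66 and 0.523, and Id1 was 21.96 and 12.9.

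Cell survival and cycle genes showed single members apart from their lists. The anti-apoptotic gene Bcl2 was 2.90 and 7.92, past 2-fold, and the other 9 expressed family members lay between -0.32 (Bcl2l1) and 0.18 (Mcl1). Cdkn1a, the p21 inhibitor of cyclin-dependent kinases, was 21.5 and 10.8, and Gadd45b was 3.68 and 1.52, both short of 2-fold on this scale. Of 29 replication and mitosis genes 0 were past 2-fold, with a median of -0.11. Ribosome biogenesis (21 genes, median 0.05) and oxidative phosphorylation (26 genes, median -0.05) also had 0 past 2-fold in either direction, as did the 6 expressed inflammatory genes (median -0.07).

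Among integrins and adhesion genes, 1 of 14 was past 2-fold higher and 1 lower, Itgb3 and Thbs1. Thbs1, an extracellular matrix glycoprotein, was 14.96 and 6.01 in the DMOG pair, 15.2 and 5.91 in the CD71/CD24a pair and 7.51 and 3.49 in the CD71 pair. Both are also on the list of megakaryocyte markers. Of its 13 expressed members 11 were below 0, with a median of -0.21, against -0.01 for all expressed genes. The summed level of the list was 110.0 and 96.5. Selp was at 0 in both libraries. Itga2b (17.9 and 19.9) was higher with Dex, and Gp5 (24.1 and 18.6) and Pf4 (3.76 and 2.54) were lower, all short of 2-fold. The part of such cells in the result was not tested. The metallothionein gene Mt2 was 77.3 and 162, with 60.3% shared sequence, and 13 other genes of metallothioneins and zinc transport lay between -0.33 and 0.35.

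**Figure D4:**
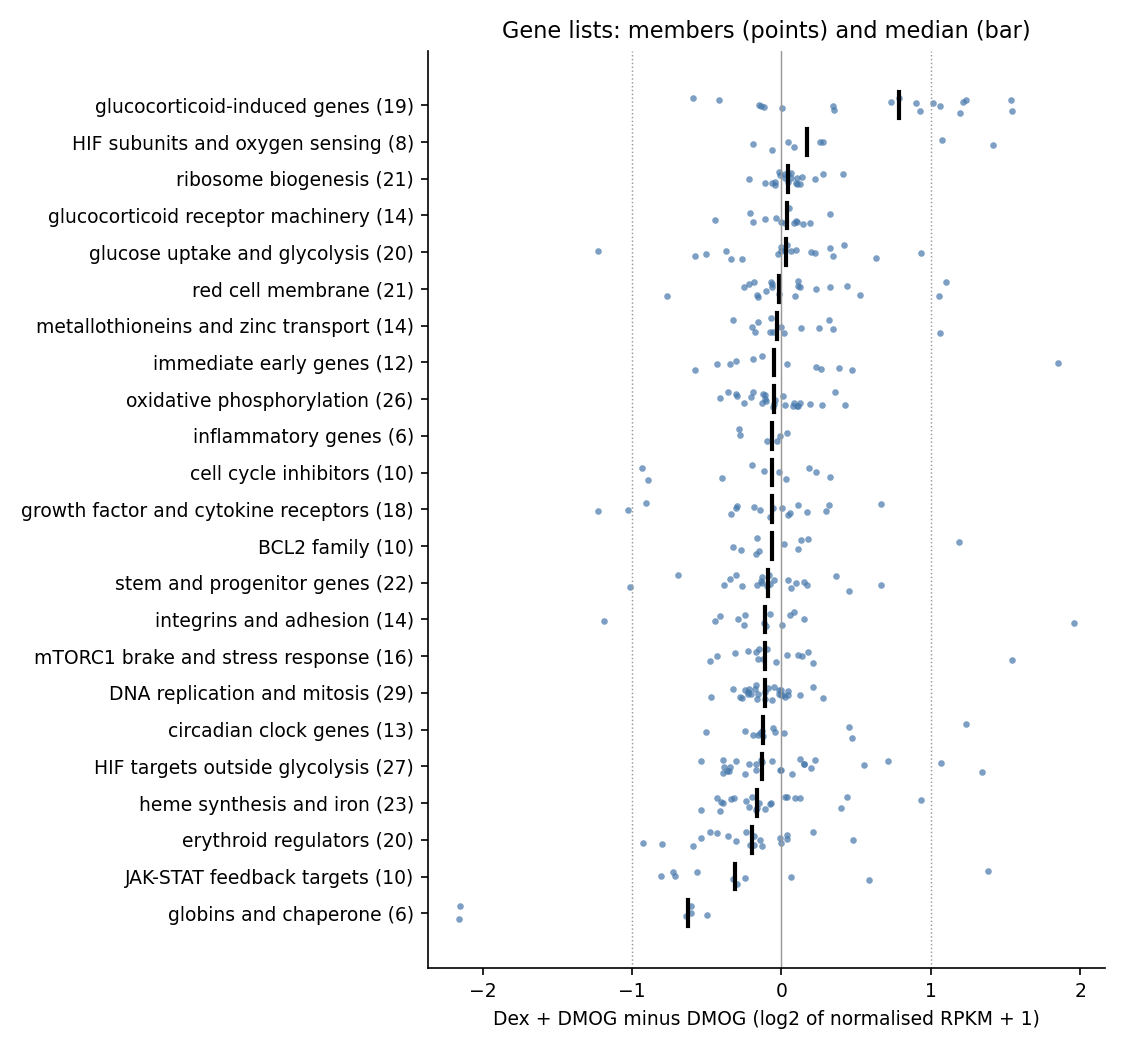
Differences between the Dex with DMOG and DMOG libraries for the expressed members of 23 gene lists, 1 point per gene, with the list median as a black bar and the number of members in brackets. Dotted lines mark 2-fold. The median is highest for glucocorticoid-induced genes (0.78) and lowest for globins (-0.62).

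Among the genes past 2-fold lower with little shared sequence, several were lower with Dex in each pair. Parm1, which encodes a mucin-like membrane protein, was 30.6 and 11.8, 23.7 and 7.83, and 29.7 and 10.9 in the DMOG, CD71/CD24a and CD71 pairs. Grtp1 was 12.3 and 4.69, Cpd, a carboxypeptidase gene, was 42.9 and 20.8, and Cited4, a coactivator that binds CBP and p300, was 25.3 and 11.1 in the DMOG pair. Magee2 was 2.01 and 0.311. All 5 fell in the limma test without DMOG. Ifitm1, an interferon-inducible membrane protein gene, was 36.4 and 14.4 with DMOG but 27.2 and 23.0 in the CD71/CD24a pair, and its interaction of -0.95 (-1.39 to -0.51) did not pass in limma (adjusted p = 0.997).

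Most of the lower genes shared sequence with other genes. Of the 29 lower genes with a value, 18 (62.1%) shared 10% or more of their 32-base words with another gene, against 10 of 51 higher genes (19.6%) and 22.8% of all expressed genes. Their median transcript length was 1169 bases, against 2889 for the higher genes and 2845.5 for all. Of the genes under 10%, all 41 higher genes were above 0 in both other pairs and all 11 lower genes were below 0 in both. Among all 7354 expressed genes under 10%, 2178 were above 0 in both and 2262 below 0 in both. Of the genes at 10% or more, 8 of 10 higher genes were above 0 in both and 11 of 18 lower genes below 0 in both. Among all 2176 expressed genes at 10% or more these counts were 534 and 699. Leaving out the shared transcripts brought the lower count from 36 to 18, and leaving out also the 7 with no sharing value brought it to 11. How the authors treated reads that match several genes is not given in the sources used here, and its part in the result was not tested.

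Ribosomal protein genes, a group picked after the values were seen, made up much of this set. Of 83 expressed, 10 were past 2-fold lower and 1 higher, with a median of -0.37. Rpsa was 81.2 with DMOG and 24.8 with Dex, and Rpl28 was 121 and 41.3. Rpl24 went the other way, at 21.0 and 63.1. In the CD71 pair Rpl28 was 99.3 and 118, so this gene was not lower with Dex there. The CD71 pair had 12 members of the group past 2-fold lower, among them Rps27 at 173 and 2.70 (12.1 and 4.70 in the DMOG pair), and the CD71/CD24a pair had 1. The medians were -0.03 and -0.12 in these pairs. Of the 83, 74 shared 10% or more (median -0.41), all 10 lower genes among them. The other 9 had a median of -0.08 with 0 past 2-fold, and are too few to set against the 74. In the CD71 pair 1 of these 9, Rps19, was past 2-fold lower (-1.11). Rpsa had the smallest unadjusted p of the interaction in limma, with an estimate of -1.25 (-1.67 to -0.83) and an adjusted p of 0.997.

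**Figure D5:**
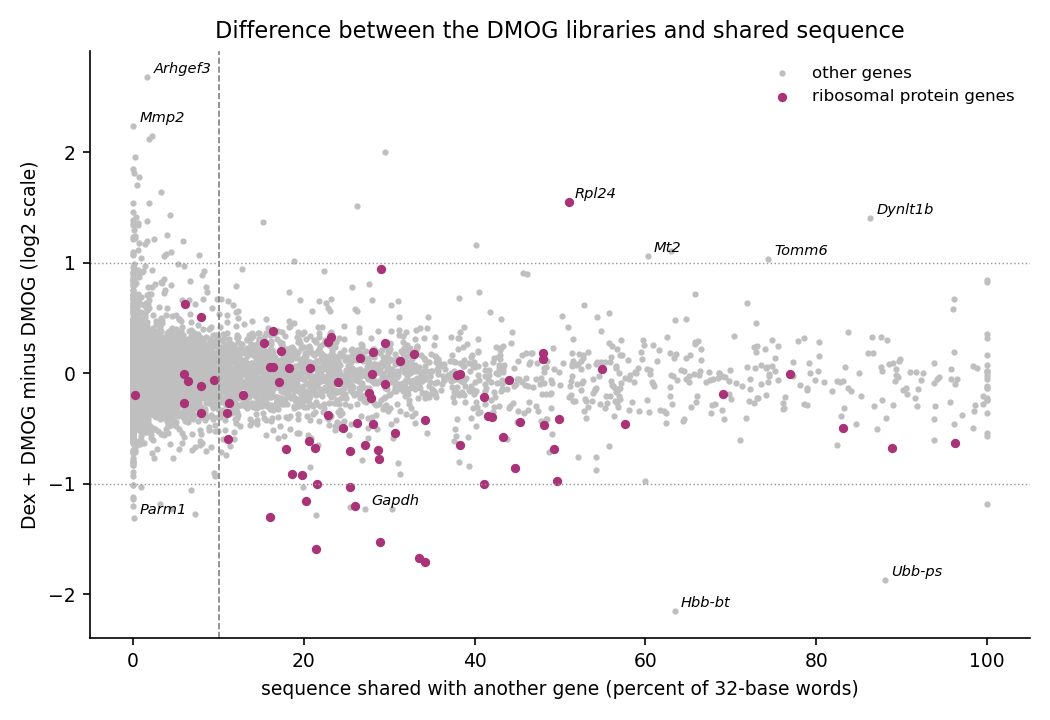
Difference between the Dex with DMOG and DMOG libraries (log2 scale) against the percent of 32-base words a gene shares with another gene, 1 point per expressed gene, with ribosomal protein genes in purple. The dashed line marks 10% and dotted lines mark 2-fold. The 10 ribosomal protein genes past 2-fold lower all lie to the right of the dashed line, where 74 of the 83 ribosomal protein genes lie.

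The same genes were looked up in the fresh libraries, which the choice of members did not use. Of the 54 higher genes, 14 (25.9%) were at least 2-fold lower in fresh CFU-E, the later progenitor, than in fresh BFU-E, and 7 (13.0%) at least 2-fold higher. Of the 36 lower genes, 4 (11.1%) were lower in CFU-E and 9 (25.0%) higher. Over all expressed genes these shares were 9.48% and 3.90%. The median CFU-E minus BFU-E difference was -0.21 for the higher genes, 0.59 for the lower genes and 0.06 for all. Each fresh stage is 1 library, so these are descriptions.

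The 2-fold line divided close neighbours. Just inside it were Tgm2 (13.1 and 27.5, difference 1.01), Tomm6 (1.03) and Rps23 (-1.01). Just outside were Rasgef1b (0.99), Fkbp11 (0.98), Rpl5 (-0.97) and Eif4a3l1 (-0.97).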

How the data were processed

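RNA-seq libraries of 9 mouse samples were used. The deposited values are RPKM computed by the authors, 23041 RefSeq records per file, and the submitters' processing notes name build mm9. Its aligner, counter and use of strand are not given in the sources used here. In the 4 files of the CD71/CD24a sort no value was 0 and 5954 to 7412 were exactly 1. The other files held no exact 1, so an exact 1 was read as 0.

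The steps between low values gave the depth, and 66.9% to 69.9% of those values were whole reads within 0.1 reads for up to 10 reads. Transcript lengths came from GENCODE of another build, so the recovered reads served for intervals only, not for a count test. Symbols came from RefSeq (22397 records) and GENCODE (114), and 530 records had none. Of 533 list names 7 were unmatched (Hbb-b1, Hbb-bs, Ahsp, Gp6, Ly6g, Cd68 and Ighm). For the 2158 names with several records the one with the highest mean was used. Libraries were scaled by the median ratio over the 9074 genes that reached 1 RPKM in each of the 6 cultured libraries. Tests used limma 3.58.1 in R 4.3.3 on log2(normalised RPKM + 1). Genes tested had a mean of 1 or more over the 6 cultured libraries, also in the test without DMOG. The culture pair was a block because the protocol divides each sort between arms. No label says that the pairs came from separate litters or cultures, so p-values measure the spread between these libraries, which may be technical. The script was tested on simulated data. Shared sequence is the percent of 32-base words, sampled 1 in 4, found in another gene.

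Members and lists were chosen with earlier results of these data known. Genes named were the 15 largest rises and falls past 2-fold, members of 30 lists past 2-fold (the 6 largest) or with the 4 highest levels, 9 genes always named and the 8 smallest interaction p-values each way. Some genes that this rule names are not reported here. Other genes are examples picked after their values were seen, the ranges of lists among them. Alternatives were the pseudocount, scaling, filters, exact 1 values, summed records, the trend and the pair block.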

Additional observations from a re-analysis of the deposited data

How the results depend on the processing

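Counts at 2-fold moved with the pseudocount and with shared sequence. With a pseudocount of 0.1 in place of 1 the DMOG pair had 90 higher and 62 lower genes, the CD71/CD24a pair 97 and 69, and the CD71 pair 150 and 235. A filter of 5 RPKM left 11 lower genes in the CD71/CD24a pair. Without transcripts sharing 10% or more of their sequence, an alternative chosen after seeing the data, the lower counts were 18, 9 and 38 in the DMOG, CD71/CD24a and CD71 pairs. Leaving out also those with no sharing value gave 11, 7 and 26. The share of higher genes among those past 2-fold in the DMOG pair was 60% with all transcripts, 71.0% without the shared ones and 78.8% without both kinds. The limma test of Dex without DMOG called 143 rises and 82 falls with no scaling factors. It called 0 and 0 with no filter on low values (smallest adjusted p = 0.0586, with 1263 genes at an unadjusted p under 0.05). With no replicate block for the pair it again called 0 and 0, with 135 genes at an unadjusted p under 0.05, which is how the calls depend on the pairing. The interaction count was 0 in every setting run, with a smallest adjusted p of 0.295 (no scaling factors). Of 336 values of 48 named genes over 7 settings 0 reversed. In 22 the shift was more than 0.1 and beyond the width of the counting interval, with the pseudocount of 0.1 or with summed records. Among them were Mmp2 at 4.42, Zfp1 at 2.91, 0610040J01Rik at 2.71 and Magee2 at -2.36 with the pseudocount, and Enah at 2.55 with summed records. Each arm is 1 library, so leaving out replicates was not possible, and without the CD71 pair the interaction has no residual degrees of freedom. The cause of each move was not tested. For a 1 kb transcript, 3 reads correspond to 0.0748 RPKM in the DMOG library and 0.0568 with Dex, which limits low genes.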
